A study of Mus musculus with 20 samples.

Results

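Collagens are the triple-helical proteins that make up much of the extracellular matrix, and their genes were followed here through the reprogramming of mouse fibroblasts. The members were the rows of the deposited expression table whose symbol reads Col, a number, the letter a and a second number. They were 43 of the 15757 genes in the table and fell into 9 classes. The classes were 11 fibrillar genes, 6 of the basement membrane, 5 of type VI, 9 of the fibril-associated kind, 3 short-chain network genes, 1 of the anchoring fibril, 2 multiplexins, 4 transmembrane genes and 2 others. The GENCODE annotation of the mm10 genome lists 44 such genes, and the remaining one, Col6a6, was not analysed here.

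The cells were embryonic fibroblasts (MEFs) of OG2 mice, which carry a fluorescent reporter of Oct4, used at passage 2. Both arms received the OSKM factors (Oct4, Sox2, Klf4 and Myc, which return fibroblasts to a pluripotent state) by retrovirus and grew in iCD1, a defined reprogramming medium. The control arm carried an shRNA against luciferase and the knockdown arm carried shRNA to Ddx10, whose product is an RNA helicase, and each arm was sampled at days 0, 1, 3, 5 and 7 with 2 libraries a group. All 10 groups are labelled with the factors and an shRNA, and no group of untreated fibroblasts or of cells without the factors was analysed here. The labels do not say how many shRNAs against Ddx10 were used, name no rescue, and do not say which stage of the infection day 0 marks. The series text calls the replicates biological without saying that they were separate cultures, so p-values measure the spread between these libraries, which may be technical.

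A collagen molecule is a helix of 3 chains, either copies of a single chain or a mix of chains from sister genes. Types I, III and V build the fibrils of connective tissue, where type I supplies most of the mass, type III forms finer fibrils and type V helps to start a fibril and to set its width. Type IV forms the sheet of basement membranes, type VI forms beaded microfibrils around cells, and fibril-associated collagens decorate fibril surfaces. Fibroblasts are the main makers of fibrillar collagen, and their matrix genes are known to be shut down as cells turn epithelial and then pluripotent during reprogramming.

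Levels are normalized read counts as deposited, and a change is a difference of group means on the log2(value + 1) scale, which understates the change of low genes. A gene was called where limma, fitted over all 15757 genes and all 20 libraries, gave a Benjamini-Hochberg adjusted p under 0.05. Library sums ran from 15.7 M to 21.3 M and fell with day. In control they went from 21.3 M and 20.8 M on day 0 to 15.7 M and 15.7 M on day 7. A share of the library sum therefore falls by less, or rises by more, than the normalized counts behind it. Replicates correlated at 0.981 to 0.989 across genes. The replicates of control day 1 differed most, with a median absolute log2 difference of 0.252 against at most 0.162 in the other groups. Ddx10 checked the labels: it stood at 523 and 499.9 in control and 313 and 319 in knockdown on day 0, and at 867 and 763 against 530.0 and 529 on day 7. On every day both knockdown libraries lay below both control libraries. The fibroblast label was checked on 12 markers, whose sum made up 1.60 to 1.81% of the control libraries on day 0, against 0.00874 to 0.00914% for 7 epithelial and 0.0108 to 0.0170% for 10 macrophage markers.

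The collagen genes as a whole took 3.02% and 2.99% of the library sum in the 2 control libraries of day 0. Their share was 1.59% and 1.76% on day 1, 1.30% and 1.25% on day 3, 1.13% and 1.28% on day 5 and 1.02% and 1.06% on day 7. The largest step of the sum was the first, and every library of a later day lay below both of day 0. All 43 genes passed the filter on low values, but the deposited table holds only genes that reach at least 7.61 in some library, so a gene under that level in both control libraries of day 0 had to be higher in some other library to be listed. Among the members this touches Col6a4, Col6a5, Col9a1, Col9a2, Col13a1 and Col26a1. Means over all libraries reached 1000 for 16 genes and lay under 10 for Col9a1, Col9a2, Col13a1 and Col26a1. Markers of other cell types moved over the same days, beside the shares of all genes given in the next paragraph. All 10 macrophage markers were called lower in control on day 1 (median change -5.05), where their sum went from 0.0108 to 0.0170% of the library to 0.00114 to 0.00126%, with Tyrobp and C1qc listed at 0 in both libraries. On day 7, 8 of them were called lower and Cd68 higher, at a sum of 0.00254 to 0.00286%. All 3 adipocyte markers measured were called lower on days 1 and 7, and their sum went from 0.00202 to 0.00217% to 0.000253 to 0.000290%. All 8 pluripotent cell markers were called higher on day 7, when their sum was 0.0243 to 0.0262%. The part of these markers in the collagen changes was not tested. In bulk RNA, fewer cells that make a collagen and less of its RNA per cell cannot be told apart.

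In the control arm, 20 collagen genes were called lower and 11 higher on day 7 than on day 0, where 33.7% of all genes were called lower and 38.6% higher. The median change was -0.36 over the 43 genes and 0.09 over all genes. On day 1 the calls were 20 lower and 7 higher, beside 26.7% and 28.3% of all genes. Calls numbered 18 lower and 14 higher on day 3 (31.3% and 34.9% of all genes) and 19 and 15 on day 5 (32.5% and 37.7%). In either direction 72.3% of all genes were called on day 7, and the counts of collagen calls are to be read against that share. Among the 16 genes whose day 0 mean reached 1000, 13 were called lower and 1 higher on day 7, with a median change of -2.30. They were picked by their day 0 level, from which the change is counted, and this favours falls. The share among all genes of that level is not given here. Quantile scaling, which gives every library the same distribution of values, moved several of these changes, and its value is given below wherever it moved the printed change of a gene by more than 1.5 times or turned it.

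**Figure D1:**
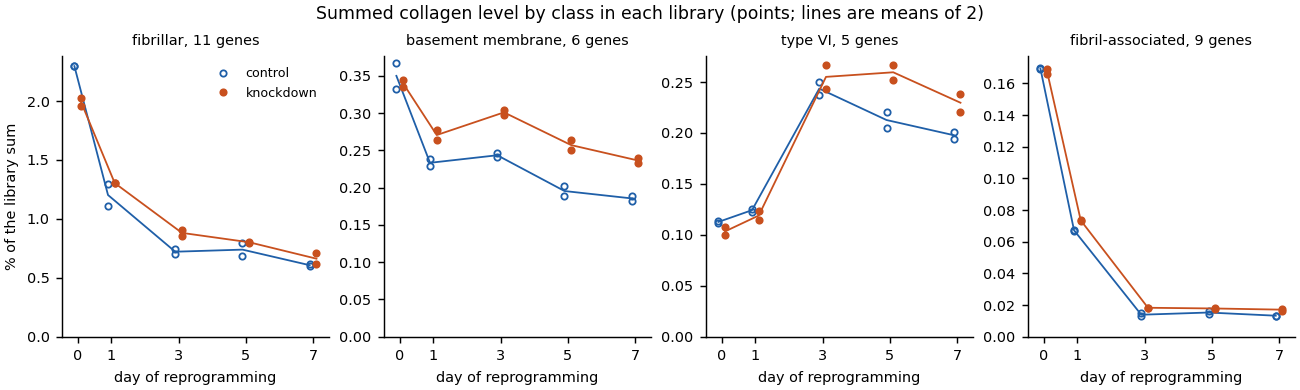
Summed levels of the 4 largest collagen classes as a percentage of the library sum (vertical axes, each from 0) against day of reprogramming, with control libraries as open blue and knockdown libraries as filled orange points and lines through the mean of 2. The fibrillar and fibril-associated sums fall from day 0 to day 3 in both arms, while the type VI sum rises to day 3.

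The fibrillar genes carried most of this loss. Their sum went from 2.30% and 2.30% of the library on day 0 to 0.598% and 0.616% on day 7, and 6 of the 11 were called lower and 1 higher. Col1a1 (chr11:94936224-94953042, plus strand, mm10) encodes the alpha-1 chain of type I collagen, of which a molecule usually holds a pair. Its control libraries read 185683 and 174874 on day 0, 57876 and 60494 on day 1, 27935 and 28442 on day 3, 20477 and 26389 on day 5 and 17355 and 18551 on day 7. The groups of days 0, 1 and 3 did not overlap, and the change to day 7 was -3.33 (SE 0.11, limma adjusted p = 7.66e-13). Under quantile scaling it was -1.70, in the same direction.

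Col1a2 (chr6:4504814-4541544, plus strand), the other type I chain, fell as well. It read 159679 and 157670.0 on day 0, 71629 and 85486 on day 1, 42381 and 40944 on day 3, 43144 and 48986 on day 5 and 34771 and 34845 on day 7. The change to day 7 was -2.19 (SE 0.08, limma adjusted p = 1.46e-12), with -0.63 under quantile scaling. Its change to day 1, -1.02, turned to 0.13 under that scaling, so the direction of the first step depends on how libraries are made comparable.

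The type V chains fell about as far as Col1a1. Col5a1 read 46111 and 47079.7 on day 0 and 3817 and 4266 on day 7, a change of -3.53 (SE 0.11, limma adjusted p = 1.93e-13). Col5a2 read 60322 and 59633 and then 6201 and 6228, a change of -3.27 (SE 0.07, limma adjusted p = 3.24e-15). The third type V chain went the other way: Col5a3 read 166 and 171 on day 0, 812 and 829 on day 3 and 331 and 373 on day 7. It was the only fibrillar gene called higher on day 7, at 1.06 (SE 0.12, limma adjusted p = 9.47e-07), after a higher value of 2.28 on day 3.

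Col3a1 (chr1:45311538-45349706, plus strand), whose product forms type III fibrils, did not share the fall. Its control libraries read 23813 and 26220.4 on day 0, 28769 and 39315 on day 1, 32022 and 28246 on day 3, 31606 and 35526 on day 5 and 29174 and 29874 on day 7. It was called higher on day 1 (0.43, SE 0.11, limma adjusted p = 0.00498) and on day 5 (0.42), and its day 7 change of 0.24 missed the threshold at a limma adjusted p of 0.0703. The day 1 change was 0.20 at an adjusted p of 0.0902 without control day 1 replicate 2, the higher of the pair, and 0.65 without replicate 1. Under quantile scaling the day 1 and day 5 changes were 1.06 and 1.37, and the day 7 change was 1.22 and passed the threshold. The day 7 change also passed it with a replicate block (adjusted p of 0.0469) and with the 2 groups fitted alone (0.0137). Col5a2 lies 24614 bases from Col3a1 (chr1:45374321-45503282, minus strand) and tail to tail with it, and fell over the same days.

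Among the remaining fibrillar genes, Col11a1, a minor fibril chain best known from cartilage, fell from 8312 and 8527 to 1129 and 1080.5 by day 7 (-2.93, SE 0.08, limma adjusted p = 5.50e-14). Col2a1, the main cartilage collagen, dropped early and partly came back. It read 4003 and 4055 on day 0, 718 and 769.6 on day 1, 423 and 396 on day 3, 976 and 974 on day 5 and 713 and 995 on day 7. The rise from day 3 to day 7, 1.04 (SE 0.11, limma adjusted p = 4.30e-06), was 1 of 5 calls in the higher direction between those days, beside 13 in the lower direction (18.1% and 18.5% of all genes). Col27a1, a fibrillar chain of developing cartilage, rose from 141 and 159 to 472 and 312 on day 1 (1.35, SE 0.20, limma adjusted p = 2.75e-05). By day 5 it read 83.8 and 110.3, below its day 0 libraries. That change was -0.63, or -1.08 under quantile scaling, and lost its call without control day 0 replicate 2 (adjusted p of 0.0631) or control day 5 replicate 1 (0.113). Col24a1 and Col11a2 were not called on day 7 in control, and single libraries decided their levels. Col24a1 read 365 and 31.8 in the 2 control libraries of day 3, and Col11a2 read 21.98 and 155.0 in those of day 7. Against day 0, Col24a1 was called higher on day 3 in control and on day 7 in knockdown. Both calls were lost under quantile scaling. The day 3 call was also lost with the 2 groups fitted alone, with a pseudocount of 5 and with a replicate block.

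**Figure D2:**
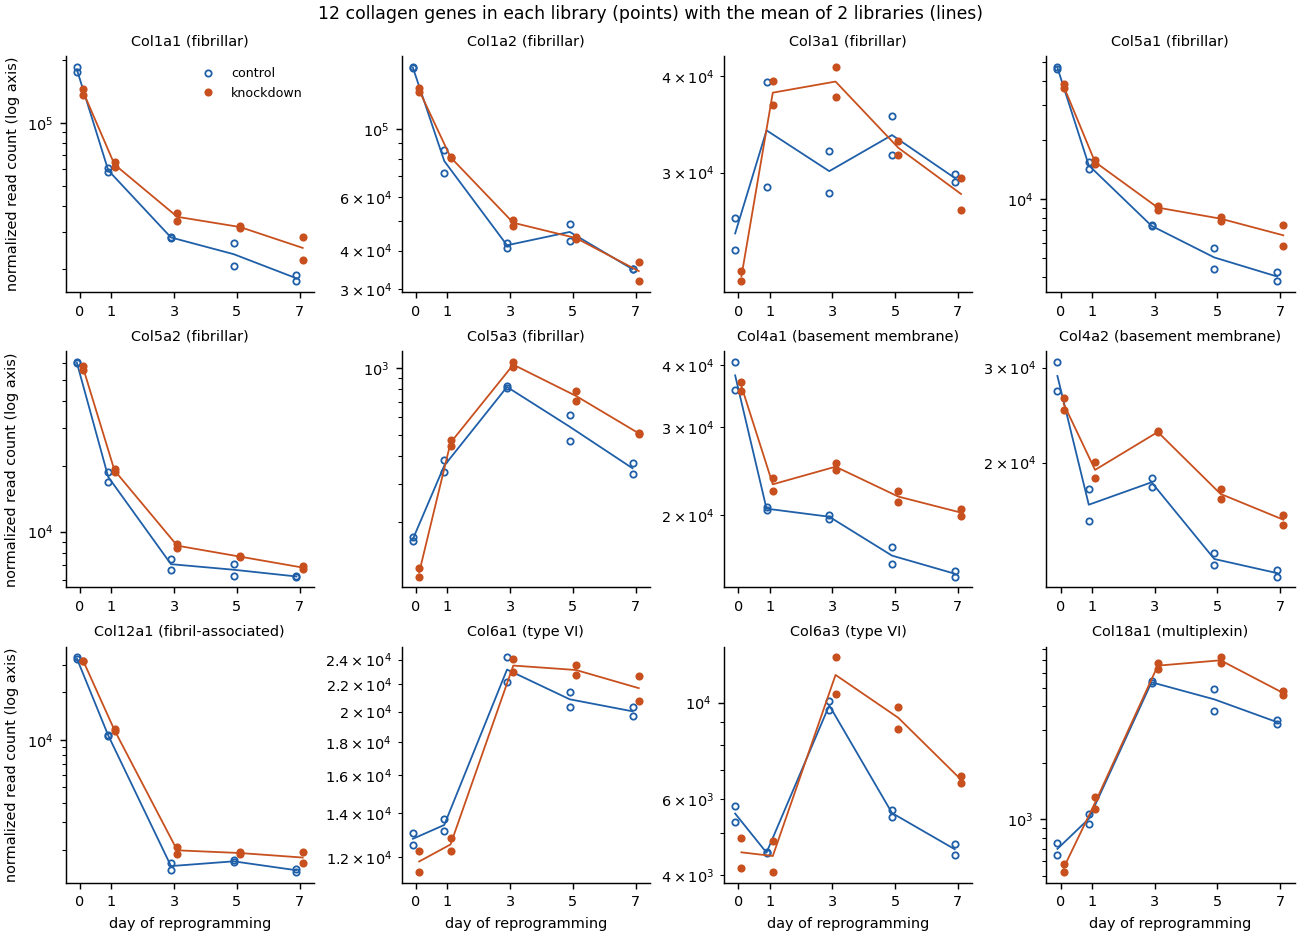
Normalized read counts (vertical log axes) of 12 collagen genes against day of reprogramming, each point a library (control open blue, knockdown filled orange) and each line the mean of 2. Col1a1, Col5a1, Col5a2 and Col12a1 fall in both arms, Col3a1 shows no such fall, and Col6a1, Col6a3, Col18a1 and Col5a3 reach their highest control means on day 3.

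Per kilobase of the longest annotated transcript, which allows genes to be compared, the order of collagens changed over the course. On day 0 of the control arm Col1a1 (30401) and Col1a2 (29669.9) led, ahead of Col5a2 at 9053, Col4a1 at 5763, Col5a1 at 5543 and Col3a1 at 4496. On day 7 the leaders were Col1a2 at 6509, Col3a1 at 5306, Col6a1 at 4884 and Col1a1 at 3027. Col5a2 had dropped to 938. These are levels per kilobase, means of 2 libraries, and the ratios between sister chains were computed in each library from them without a test, as they were chosen after the levels were seen. Col1a1 over Col1a2 was 1.05 and 1.00 on day 0 and 0.450 and 0.480 on day 7 in control, so both chains were near parity at the start and the alpha-1 chain was the lower afterwards. In the knockdown arm the ratio was 0.930 and 0.969 and then 0.621 and 0.694. Col3a1 over Col5a2 went from 0.470 and 0.524 to 5.60 and 5.71 in control. Col4a1 over Col4a2, by contrast, stayed between 1.04 and 1.38 in all 20 libraries.

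**Figure D3:**
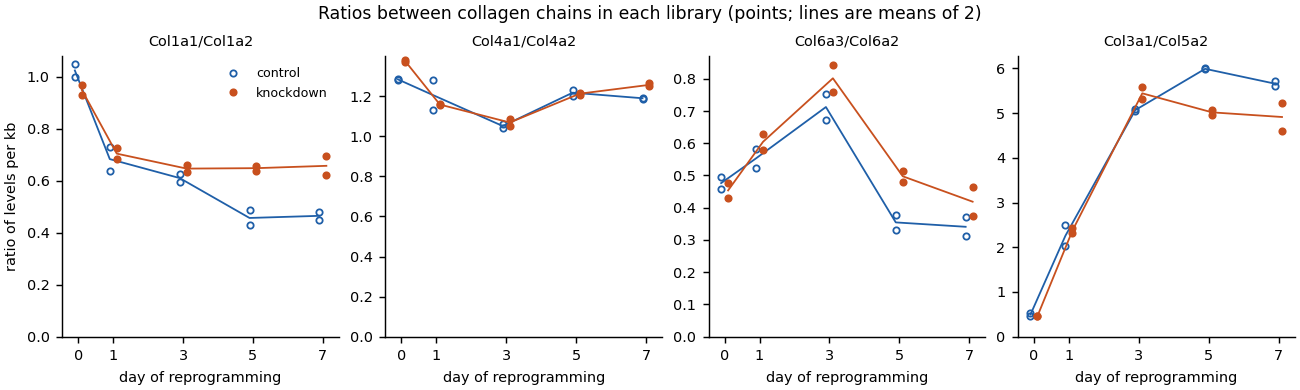
Ratio of the levels per kilobase of 4 pairs of collagen genes (vertical axes, from 0) against day of reprogramming, in each library (control open blue, knockdown filled orange) with lines through the mean of 2. Col1a1 over Col1a2 falls below 1, Col3a1 over Col5a2 rises to between 4.61 and 5.71 on day 7, and Col4a1 over Col4a2 keeps the narrowest relative range.

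RefSeq promoter windows (GRCm38.p6, 250 bases before the annotated start) were found for 34 of the 43 genes, 37 windows in all. Windows of 4 genes that held no annotated exon base are shown because their genes took different courses in control: Col5a1 and Col8a1 fell, Col3a1 was not called on day 7 and Col5a3 rose. They lie at chr2:27886175-27886424 (plus strand), chr16:57754738-57754987 (minus), chr1:45311288-45311537 (plus) and chr9:20815068-20815317 (minus). Each is written 5′ to 3′ along the gene, and capitals mark matches to any of 3 motifs on either strand. The first is the TATA box, searched as TATAAA. The second is the pentamer CCAAT. The third is the GC box, searched as GGGCGG.
Col5a1: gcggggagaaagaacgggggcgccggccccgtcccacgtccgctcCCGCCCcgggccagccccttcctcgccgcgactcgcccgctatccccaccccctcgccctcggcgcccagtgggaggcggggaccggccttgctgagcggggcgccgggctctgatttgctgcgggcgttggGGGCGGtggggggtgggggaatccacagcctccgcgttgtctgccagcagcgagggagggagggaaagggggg
Col8a1: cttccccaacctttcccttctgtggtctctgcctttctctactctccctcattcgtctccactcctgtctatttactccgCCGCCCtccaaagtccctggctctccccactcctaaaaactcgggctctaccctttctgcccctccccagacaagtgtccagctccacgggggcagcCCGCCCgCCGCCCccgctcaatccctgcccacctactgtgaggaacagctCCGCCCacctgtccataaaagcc
Col3a1: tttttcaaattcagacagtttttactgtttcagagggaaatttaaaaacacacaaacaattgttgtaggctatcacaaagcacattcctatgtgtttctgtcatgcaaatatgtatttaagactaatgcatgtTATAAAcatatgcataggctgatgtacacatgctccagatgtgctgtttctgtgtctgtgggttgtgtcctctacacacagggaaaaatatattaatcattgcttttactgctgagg
Col5a3: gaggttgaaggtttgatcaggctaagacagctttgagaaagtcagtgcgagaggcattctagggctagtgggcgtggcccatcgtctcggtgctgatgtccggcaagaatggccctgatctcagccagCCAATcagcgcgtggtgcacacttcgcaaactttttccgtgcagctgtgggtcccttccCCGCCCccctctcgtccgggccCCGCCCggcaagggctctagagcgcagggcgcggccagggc
Col5a1 held 2 GC boxes, 205 and 73 bases upstream of the start at their first base, and Col8a1 held 4, the nearest at 23 bases. Col3a1 held a TATAAA at 117 bases and neither of the other motifs. Col5a3 held a CCAAT at 122 bases and GC boxes at 63 and 41 bases. Across collagen windows 56.8% held a GC box, against 32.7% of all 32851 windows. TATAAA stood in 13.5% against 12.4%, CCAAT in 35.1% against 33.8%, the AP-1 motif TGANTCA in 2.7% against 6.75% and the E-box CANNTG in 51.4% against 66.2%, each on both strands. No match was set against the changes in level.

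The basement membrane genes fell in part. Of the 6, 4 were called lower on day 7 and none higher in control. Col4a1 (chr8:11198423-11312826, minus strand) and Col4a2 (chr8:11312805-11449287, plus strand) encode the chains of the common type IV network and lie head to head, with 22 bases of overlap between the annotated genes. The counting is not stated to use strand, but the overlap is short. Col4a1 read 40537 and 35702 on day 0, 20691 and 20448 on day 1, 19610.5 and 20019.5 on day 3, 15912 and 17189 on day 5 and 15013 and 15429 on day 7. Col4a2 read 30719.5 and 27189.5, 17852 and 15566, 18014 and 18763, 12913 and 13591 and 12287 and 12666 on the same days. Both were lower on every later day than in either day 0 library. The day 7 changes were -1.32 (SE 0.06, limma adjusted p = 3.25e-11) for Col4a1 and -1.21 (SE 0.07, limma adjusted p = 4.20e-10) for Col4a2, with -0.19 and -0.20 under quantile scaling. That scaling turned the day 3 changes, -0.94 and -0.65, to 0.02 and 0.30. The X-linked chain genes Col4a5 and Col4a6, 1308 bases apart, fell too. Col4a5 went from 6333 and 5986 to 1188 and 1257 (-2.33, SE 0.08, limma adjusted p = 4.15e-13) and Col4a6 changed by -1.71. Col4a3 and Col4a4, the chains best known from kidney and lung membranes, stayed between 4.72 and 48.6 in all 20 libraries and were not called on day 7 in control.

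The summed level of type VI genes rose. It was 0.112% and 0.114% of the library on day 0, 0.250% and 0.237% on day 3 and 0.194% and 0.201% on day 7 in control. In normalized counts the rise to day 7 was smaller, from 23712 and 23718 to 30441 and 31551. On day 1 the sum was lower in counts, at 21727 and 21837. Of the 5 genes, 3 were called higher and 1 lower on day 7. Besides Col6a1 the higher ones were Col6a4 and Col6a5, which lay under 7.61 in both control libraries of day 0. They had to be higher in some other library to be listed, so their calls add little to the count. Col6a1, the alpha-1 chain, read 13070.1 and 12542 on day 0, 24189 and 22175 on day 3 and 19688 and 20364 on day 7, a change of 0.65 (SE 0.06, limma adjusted p = 2.00e-07) and of 1.45 under quantile scaling. Col6a2 read 5332 and 5387 and 5869 and 6589 on days 0 and 7 and was not called (0.21). Its change was called under quantile scaling (0.62), with the 2 groups fitted alone (adjusted p of 0.036) and without control day 7 replicate 1 (0.30, adjusted p of 0.0421). Col6a3, the long alpha-3 chain, peaked on day 3: it read 5307 and 5785 on day 0, 9626 and 10076 on day 3, 5458 and 5664 on day 5 and 4729 and 4449 on day 7. Its day 7 call, -0.27 (SE 0.10, limma adjusted p = 0.0245), turned to 0.14 under quantile scaling and was lost without control day 0 replicate 2 or control day 7 replicate 2 (adjusted p of 0.149 and 0.13), while the fall from day 3 to day 7 was -1.10.

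The alternative alpha-3-like chains Col6a4 and Col6a5 came up from almost nothing, and could be listed only because some library was higher. Col6a5 read 1.89 and 2.93 on day 0, 58.9 and 74.0 on day 1, 202 and 183 on day 3 and 134 and 115 on day 7 (5.21, SE 0.43, limma adjusted p = 3.14e-08). Col6a4 read 0.851 and 0.659 on day 0 and 22.6 and 35.1 on day 7 (4.06, or 2.42 under quantile scaling and 2.53 with a pseudocount of 5). Col6a5 was highest on day 3.

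The largest falls on day 7 belonged to a short-chain gene, Col8a2, and a fibril-associated gene, Col12a1. Col12a1, which coats type I fibrils, read 33288 and 32337 on day 0, 10706 and 10647 on day 1, 1667 and 1511 on day 3 and 1532 and 1458 on day 7, a change of -4.46 (SE 0.08, limma adjusted p = 2.00e-16). Of the 9 fibril-associated genes, 5 were called lower and none higher on day 7. Besides Col12a1 they were Col16a1 (2158 and 2362 to 347 and 421, -2.56), Col14a1 (-1.99), Col19a1 (-3.78) and Col22a1 (-1.16, or -2.39 under quantile scaling). The Col22a1 call was lost without control day 0 replicate 1 or without either control library of day 7 (adjusted p of 0.212, 0.182 and 0.055). The type IX genes Col9a1, Col9a2 and Col9a3 and Col20a1 were not called on day 7. All 3 short-chain network genes were called lower. Col8a1, made by vascular and corneal cells among others, read 13624 and 14131 on day 0 and 1358 and 1351 on day 7 (-3.36, SE 0.08, limma adjusted p = 1.63e-14). Its partner Col8a2 read 137 and 178 on day 0 and 1.94 and 4.22 on day 1, with 0.963 and 3.52 on day 7 (-5.72, SE 0.79, limma adjusted p = 7.65e-06). Col10a1, the collagen of hypertrophic cartilage, changed by -2.48. Col7a1, which forms the anchoring fibrils under epithelia, had overlapping libraries on days 0 and 1 and fell later. It read 1148 and 970.1 on day 0, 879.8 and 1268 on day 1, 335 and 347 on day 5 and 261 and 292 on day 7 (-1.93, SE 0.14, limma adjusted p = 5.35e-09).

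Multiplexin and transmembrane collagens rose. Col18a1, a basement membrane proteoglycan whose tail is the source of endostatin, read 646 and 750.3 on day 0, 1069.9 and 945 on day 1, 5400.3 and 5289 on day 3 and 3192 and 3379 on day 7 (2.24, SE 0.12, limma adjusted p = 7.85e-11). Col15a1, the other multiplexin, read 82.8 and 93.5 and then 287 and 262 (1.63, SE 0.40, limma adjusted p = 0.002). All 4 transmembrane genes were called higher on day 7, though Col13a1 could be listed only because some library was higher than those of control day 0. Col17a1, a hemidesmosome protein of epithelial cells, read 12.8 and 10.9 on day 0 and 149 and 131 on day 7 (3.45, SE 0.43, limma adjusted p = 2.25e-06). Col25a1 read 4.51 and 12.0 and 101 and 76.0 (3.39), and Col23a1 read 9.20 and 19.3 and 94.8 and 95.7 (2.74, or 1.83 under quantile scaling). Col13a1 is listed at 0 in both control libraries of day 0 and read 1.69 and 5.51 on day 7, and its call was lost under quantile scaling, with a pseudocount of 5, and without either control library of day 0 or control day 7 replicate 2. Col28a1 was also called higher (11.8 and 10.2 to 53.8 and 54.6, 2.21, or 1.18 under quantile scaling), and Col26a1 was not called. Epithelial markers were also higher by day 7, but not all of these genes shared their course. The marker sum was 0.00874 to 0.00914% of the library on day 0, 0.00742 to 0.00805% on day 1, 0.0341 to 0.0345% on day 3 and 0.133 to 0.146% on day 7. Control levels of Col18a1 and Col25a1 were instead highest on day 3, while Col17a1 was highest on day 7. Of the 7 markers, 6 were called higher on day 7 and none lower, and their part in the result was not tested.

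**Figure D4:**
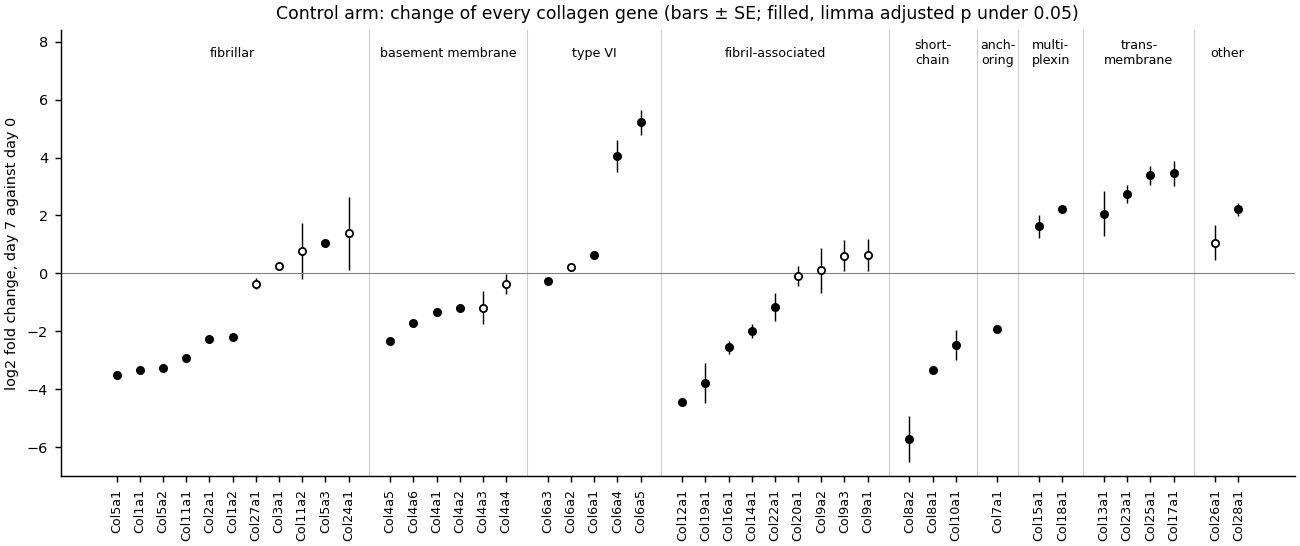
Log2 change from day 0 to day 7 in the control arm (vertical axis) for each of the 43 collagen genes, grouped by class, with bars of 1 SE and filled points for a limma adjusted p under 0.05. Short-chain genes all lie below 0 and multiplexin and transmembrane genes all lie above it, while the fibrillar class holds Col5a3 above 0 and 6 called genes below -2. Col13a1, listed at 0 on day 0, has a value that depends on the pseudocount.

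Genes that fold, process and bind collagen were taken from lists of known function, chosen with earlier results of these data known. The counts below stand beside 33.7% of all genes called lower, 38.6% called higher and 72.3% called in either direction on day 7 in control, and the receptors and proteases lie near the last share in their totals. Of 20 genes for folding and hydroxylation, 17 were called lower and 1 higher on day 7 in control, among them the collagen chaperones Serpinh1 (-2.68, or -1.59 under quantile scaling) and Fkbp10 (-2.72). Of 13 genes for procollagen cleavage and cross-linking, 11 were called lower and none higher, led by the cross-linking oxidases Lox (-5.15) and Loxl2 (-4.92). Fibril partners were called lower in 9 and higher in 4 of 13 measured genes, with the matricellular gene Thbs1 at -5.33. Basement membrane partners were called lower in 7 and higher in 4 of 12, with the linkers Nid1 at -2.65 (-1.74 under that scaling) and Nid2 at -2.69. Among receptors 5 were lower and 2 higher of 9 measured, with the integrin chain Itgb1 at -2.17 (-1.09 under that scaling) and the uptake receptor Mrc2 at -1.94. The collagen-degrading proteases Mmp9 (-3.73) and Ctsk (1.23) went opposite ways, in a list with 3 lower and 1 higher of 5 measured. Fibroblast markers, of which Dcn, Lum and Fn1 also stand among the fibril partners, were called lower in 9 and higher in 2 of 12. Their sum went from 1.60 to 1.81% to 0.602 to 0.649% of the library, and its part in the fall of the collagens was not tested.

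The effect of Ddx10 knockdown on collagen levels was compared with control on each day. On day 0, 33 of the 43 changes were negative, and the share of all genes with such a change is not given here. The median change was -0.19 over the 43 genes and -0.02 over all genes. Limma called 2 collagen genes, both lower, beside 0.812% of all genes called lower and 2.49% called higher. Neither call held under quantile scaling. Col5a3 read 124 and 114 in knockdown, both below control (-0.50, SE 0.12, limma adjusted p = 0.0331). Col7a1 read 697 and 745 in knockdown, also below both control libraries (-0.55, SE 0.14, limma adjusted p = 0.0474). Both calls were lost without any 1 of the 4 libraries of that day, and neither held when the 2 groups of day 0 were fitted alone. Col1a1 read 135780.0 and 145812 against 185683 and 174874 in control without being called (-0.36, or 0 under quantile scaling). On day 1 limma called no collagen gene, with 6 at an unadjusted p under 0.05, beside 0.146% of all genes called.

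From day 3 most called genes were higher in knockdown. On day 3, 7 genes were called higher in knockdown and 1 lower, beside 2.51% and 2.25% of all genes. Of the 16 abundant genes, 15 had a positive change, and the share of all genes with such a change is not given here. Col4a1 read 25400.4 and 24562 in knockdown against 19610.5 and 20019.5 in control (0.33, SE 0.06, limma adjusted p = 0.00945), and Col4a2 read 22843 and 22749 against 18014 and 18763 (0.31, SE 0.07, limma adjusted p = 0.0247). Col11a1 read 1662 and 1748 against 1285 and 1249 (0.43, SE 0.08, limma adjusted p = 0.00946). Col28a1, at 112 and 125 against 55.9 and 50.9, had the largest change among the calls in that direction (1.13). Col5a2 (0.29), Col12a1 (0.33) and Col4a5 (0.39) were the other 3. Col15a1 was the exception, at 76.9 and 77.1 in knockdown against 394 and 249 in control (-2.01, SE 0.40, limma adjusted p = 0.0121). All 8 calls were lost without either knockdown library of day 3, 7 were lost without control day 3 replicate 2 and 3 without replicate 1, with every direction kept.

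On day 5, 10 genes were called higher and none lower, beside 5.83% of all genes called higher and 2.9% called lower. Col6a3 read 8675 and 9769 in knockdown against 5458 and 5664 in control (0.73, SE 0.10, limma adjusted p = 0.000411). Col7a1 read 698 and 638 against 335 and 347 (0.97, SE 0.14, limma adjusted p = 0.000656), and Col18a1 read 7240.2 and 6746 against 3749 and 4929 (0.70, SE 0.12, limma adjusted p = 0.0014). In these 3 genes both knockdown libraries lay well above both control libraries. Col27a1 had the largest change among the calls of that day, 237 and 225 against 83.8 and 110.3 (1.25, SE 0.20, limma adjusted p = 0.00092). Col5a1 read 8136 and 7774 against 4436 and 5667 (0.67, SE 0.11, limma adjusted p = 0.0014). Col4a1 (0.40) and Col4a2 (0.40) were called again, and these 7 calls held under every alternative. Col1a1, Col5a3 and Col28a1 were called at 0.44, 0.47 and 0.74 but did not hold throughout. Col1a1 lost the call without control day 5 replicate 1 or either knockdown library, Col5a3 without replicate 1 of either arm and Col28a1 without any 1 of the 4 libraries. Without control day 5 replicate 1 the changes of Col1a1 and Col5a3 were 0.26 and 0.28, at adjusted p of 0.282 and 0.3.

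**Figure D5:**
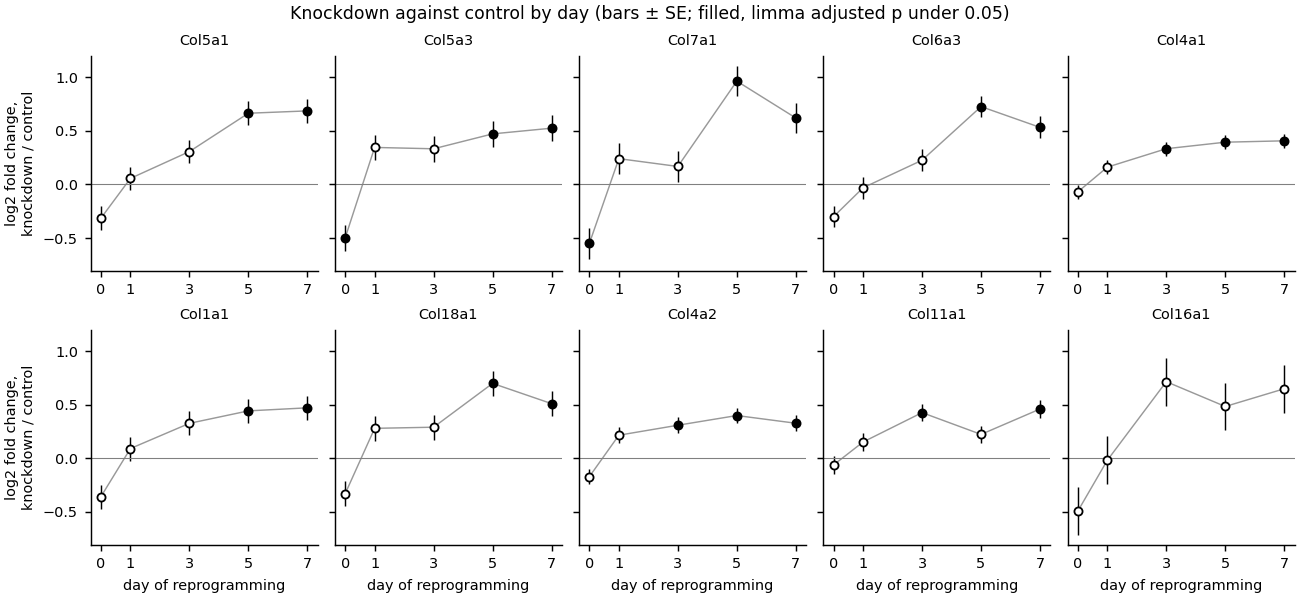
Log2 difference of knockdown from control (vertical axes, bars of 1 SE) on each day for the 10 collagen genes whose change from day 0 to day 7 differed between arms, filled where the limma adjusted p was under 0.05. Every gene lies below 0 on day 0 and above 0 on days 3, 5 and 7; the genes were chosen by that difference between arms, so the panels describe it and add no test.

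On day 7, 10 genes were again called higher and none lower, beside 4.65% of all genes called higher and 1.52% called lower. Of the 10, 9 were also called on day 5. The libraries differ, but both tests used the same estimate of the spread of a gene. The overlap of the 2 days over all genes is not given here. The median change was 0.36 over the 43 genes and near 0 over all genes. Col5a1 read 5749.5 and 7345 in knockdown against 3817 and 4266 in control (0.69, SE 0.11, limma adjusted p = 0.0015). Col4a1 read 19895 and 20494 against 15013 and 15429 (0.41, SE 0.06, limma adjusted p = 0.00127). Col6a3 read 6753 and 6527 against 4729 and 4449 (0.53, SE 0.10, limma adjusted p = 0.0049). Col1a1 read 21879 and 28344 against 17355 and 18551 (0.47, SE 0.11, limma adjusted p = 0.0196), and its change was 0.29 at an adjusted p of 0.294 without knockdown day 7 replicate 2. Col11a1, absent from the calls of day 5, was the tenth gene (0.46, SE 0.08, limma adjusted p = 0.00305). The others were Col4a2 (0.33), Col5a3 (0.53), Col7a1 (0.62), Col18a1 (0.51) and Col28a1 (0.99). Only Col4a1 and Col11a1 kept the call of day 7 under every alternative. Col18a1 and Col28a1 lost it without any 1 of the 4 libraries of that day. Col1a1 and Col4a2 lost it without either control library or knockdown replicate 2, Col5a3 and Col7a1 without control replicate 1 or either knockdown library, and Col6a3 without control replicate 2. Col5a1 lost it where the 2 groups were fitted alone, at an adjusted p of 0.0512. Col1a2 and Col3a1 were not called on any day, at -0.03 and -0.07 (SE 0.08 and 0.11) on day 7, or 0.12 and 0 under quantile scaling.

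Over all days together, 16 genes were called higher in knockdown and 1 lower, beside 10.3% and 7.46% of all genes. The changes were small, with 0.25 (SE 0.03, limma adjusted p = 4.23e-05) for Col4a1 and 0.75 (SE 0.10, limma adjusted p = 9.61e-05) for Col28a1. Col15a1 was the lower one (-0.58, SE 0.18, limma adjusted p = 0.0375), a call lost in 16 of the 20 fits that left out 1 library. Among the higher calls Col6a5 was lost in 15 of those fits, with a pseudocount of 0.1 and with a replicate block, Col8a1 in 12 and Col4a5 in 2. The other 13 calls held under every alternative. Within the knockdown arm 18 genes were called lower and 18 higher on day 7 than on day 0 (30.9% and 36.2% of all genes). Col1a1 went from 135780.0 and 145812 to 21879 and 28344 there (-2.50, or -1.28 under quantile scaling). Col5a1 went from 36572 and 38366 to 5749.5 and 7345 (-2.53, or -1.67). Col6a2 (0.68), Col6a3 (0.56) and Col3a1 (0.35) were called higher in that arm, with 1.04, 0.91 and 1.21 under quantile scaling. The Col3a1 call was lost without knockdown day 0 replicate 1 or knockdown day 7 replicate 2. Col4a1 (-0.84) and Col4a2 (-0.71) were called lower, and that scaling turned them to 0.17 and 0.25.

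The difference between arms in the change from day 0 to day 7 was tested directly. It was called for 10 collagen genes, each with a larger value in knockdown, beside 3.92% of all genes called in that direction, and none was called the other way (2.46%). The difference was 1.00 (SE 0.16, limma adjusted p = 0.00224) for Col5a1, which fell by less in knockdown, and 1.03 (SE 0.17, limma adjusted p = 0.00362) for Col5a3, which rose by more. Col7a1 (1.17, SE 0.20, limma adjusted p = 0.00461) and Col6a3 (0.83, SE 0.14, limma adjusted p = 0.00461) followed. Col18a1 (0.84) and Col4a1 (0.48) completed the 6 that held under every alternative. Col1a1 (0.83) was lost under quantile scaling, at 0.42 and an adjusted p of 0.0914. Col4a2 (0.50) was lost without control day 7 replicate 1, knockdown day 0 replicate 1 or knockdown day 7 replicate 2. Col11a1 (0.52) was lost without control day 7 replicate 2 or replicate 2 of knockdown days 0 or 7, and Col16a1 (1.14) without any 1 of the 8 libraries. In each of these 10 genes the mean of knockdown lay below control on day 0 and above it on day 7, so both ends add to these differences. The day 0 end was not small in every gene: for Col7a1 it was -0.55, beside 0.62 on day 7. The evidence at that end is weak. Libraries of the arms overlapped on that day for Col4a1 and Col11a1. Only Col5a3 and Col7a1 were called on it, and those calls did not hold with single libraries left out.

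In the lists of genes acting on collagen, chosen with earlier results known, all called genes were higher in knockdown on day 7. Of all genes, 4.65% were called higher on that day and 1.52% lower. In knockdown 5 of 20 folding and hydroxylation genes were called higher and none lower, among them Crtap at 0.43 and Colgalt2 at 1.06. For cleavage and cross-linking it was 5 of 13, with Lox at 0.80 and Adamts14, which trims procollagen ends, at 1.07. Basement membrane partners had 6 of 12 called higher, with Nid1 at 0.89 and Lamb1 at 0.64, and fibril partners 7 of 13, with the proteoglycan gene Bgn at 0.87. Receptors had 2 of 9 and proteases 3 of 5, and none of these 6 lists held a gene called lower. Without control replicate 1, control replicate 2 or knockdown replicate 2 of that day the counts fell, to 1 or 2 for folding, to 2 or 3 for fibril partners, to 3 for basement membrane partners without the first or the last, to 0 or 1 for receptors and to 1 for proteases without the last. The folding count was 2 without knockdown replicate 1. Of the genes named here, Crtap lost its call without knockdown replicate 2, and Colgalt2 without either control library or knockdown replicate 1. Cell type markers moved beside them. Fibroblast markers summed to 0.727 to 0.754% of the library in knockdown against 0.602 to 0.649% in control on day 7, and to 0.800 to 0.811% against 0.615 to 0.655% on day 5, with 2 of 12 called higher on day 7. That count was 5 under quantile scaling, 7 where the 2 groups were fitted alone and 0 without control replicate 1, control replicate 2 or knockdown replicate 2. Epithelial markers summed to 0.0754 to 0.0798% against 0.133 to 0.146% on day 7, with 4 of 7 called lower, led by Krt19 (-1.41) and Krt8 (-1.19), and all 7 with the 2 groups fitted alone. Their part in the collagen differences was not tested. Macrophage markers summed to 0.00183 to 0.00192% against 0.00254 to 0.00286% on that day, with 3 of 10 at 0 in both control libraries and 1 in both knockdown libraries. Cd68 was called lower (-0.65) and the other 9 were not, and that call was lost without control replicate 1 or either knockdown library. Of the other marker lists, pluripotent, endothelial, chondrocyte, osteoblast, extraembryonic endoderm and adipocyte markers had 1 gene each called higher and none lower. Glial markers had none called. The pluripotent sum was 0.0320 to 0.0346% in knockdown against 0.0243 to 0.0262% in control on day 7. The osteoblast sum was the lower in knockdown, at 0.0106 to 0.0113% against 0.0136 to 0.0154%. Chondrocyte, extraembryonic endoderm and adipocyte sums were higher in knockdown, the endothelial sum was lower and the glial sums overlapped. The part of these lists was not tested either.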

How the data were processed

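Messenger RNA of 20 libraries was measured, 2 in each of 10 groups of arm and day. The authors deposited 1 table of normalized counts per gene (signal, not whole numbers), and the submitters' processing notes name DESeq2 1.22.0, the mm10 genome, RSEM 1.2.22, Trim Galore 0.4.4 and STAR 2.5.2a without their roles. The normalization step, annotation and gene filter are not given in the sources used here. Low values cluster at steps, but 44.8 to 63.4% of those up to 20 steps lay within 0.1 of a whole step, so reads could not be recovered and no count test was run. Step and sum put the depth near 12.0 M to 23.6 M reads, which limits genes at low counts.

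Values were taken to log2(value + 1) and fitted with limma 3.58.1 in R 4.3.3 on 10 group means, with trend and robust settings, a filter of at least 1 in 2 libraries (which removed none) and Benjamini-Hochberg adjustment over 15757 genes. On simulated data for knockdown against control at day 7 (15756 genes), 88% of changes of log2 1 and 46% of log2 0.5 were recovered, with 3 false calls. For knockdown against control at day 0 the shares were 82% and 51%, with 10 false calls. For control day 7 against day 0 they were 81% and 45%, with 3. Changes were planted only in genes above a set mean level, so these shares do not cover the low members. The 23 symbols that were blank or altered to dates were restored from gene identifiers. Members and lists were chosen with earlier results of these data known. Named with values in all libraries of a comparison were the most abundant members of each class by day 0 mean, the 2 calls with the smallest adjusted p in each direction, and calls against their class. Other members are named to account for all 43. Alternatives were other scalings, pseudocounts of 0.1 and 5, a mean of at least 10, no filter, a replicate block, the compared groups alone and leaving out each library. Promoter windows came from RefSeq, and transcript lengths and coordinates from GENCODE.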

Additional observations from a re-analysis of the deposited data

Results flagged for a closer look

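The change from day 0 to day 7 differed between the arms, by the test of that difference itself, for 10 collagen genes. In log2 units, as knockdown minus control, the differences were 1.00 for Col5a1, 1.03 for Col5a3, 1.17 for Col7a1, 0.83 for Col6a3, 0.477 for Col4a1, 0.83 for Col1a1, 0.84 for Col18a1, 0.499 for Col4a2, 0.52 for Col11a1 and 1.14 for Col16a1. Limma adjusted p ran from 0.00224 for Col5a1 to 0.0462 for Col16a1, with 2 libraries a group. The genes were 4 fibrillar chains (Col1a1, Col5a1, Col5a3 and Col11a1), both common type IV chains, the long type VI chain, Col7a1, Col16a1 and Col18a1. Only the sign of the difference between arms was shared. In control, Col5a3 and Col18a1 rose from day 0 to day 7 while Col1a1 and Col5a1 fell. Col7a1, for example, read 1148 and 970.1 in control and 697 and 745 in knockdown on day 0, and 261 and 292 against 436 and 414 on day 7.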

How the results depend on the processing

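Over the calls of single collagen genes, 2633 alternative values kept the direction and the side of the threshold, 232 kept the direction only and 8 turned. All 8 turned under quantile scaling: control day 1 against day 0 for Col1a2 (0.133), day 3 for Col4a1 (0.0156) and Col4a2 (0.296), day 5 for Col9a1 (-0.194) and day 7 for Col6a3 (0.138), and knockdown day 7 against day 0 for Col4a1 (0.167), Col4a2 (0.248) and Col9a1 (-0.4505). Among changes that were not called, Col1a2 in knockdown against control at day 7 (-0.03) turned to 0.116 under quantile scaling and lay between -0.133 and 0.0824 leaving out each library. Quantile scaling moved the median of all genes on control day 7 from 0.09 to -0.08.

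Counts of collagen calls moved by over 1.5 times in 4 comparisons. Knockdown against control at day 0 went from 2 to 0 under quantile scaling, 1 with a pseudocount of 5, 1 with a replicate block, 0 with the compared groups alone and 0 to 1 leaving out each library. At day 1 the 0 calls became 0 to 4 leaving out each library. At day 3 the 8 became 16 with the compared groups alone and 0 to 5 leaving out each library, and at day 7 the 10 became 4 to 7 in such fits. Calls held under every alternative for 28 of 31 genes on control day 7, 7 of 10 at knockdown day 5, 2 of 10 at day 7 and 6 of 10 in the difference between arms. Same-numbered replicates did not deviate together (r between -0.0732 and 0.0838 over 45 pairs of groups), and the replicate block gave 9 calls at day 3 and 10 at day 7. The mean over all days used every group, so no fit of its groups alone was made.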

Other observations

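Several low collagens had a level in single libraries far from their replicate. Col24a1 read 16.9 and 386 in the 2 knockdown libraries of day 1, 365 and 31.8 in control day 3 and 26.4 and 185 in knockdown day 7, and between 3.21 and 44.8 in the other groups. Col11a2 read 106 and 31.7 in control day 1, 93.6 and 17.0 in knockdown day 1, 110.3 and 26.5 in knockdown day 0 and 21.98 and 155.0 in control day 7, and between 14.1 and 59.7 in the other groups.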
